A study of Homo sapiens with 6 samples.

Results

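The interleukins and their receptors were followed here in a human papillary thyroid carcinoma cell line, TPC-1, and in the same line made to overexpress *RRM2*. *RRM2* encodes the small subunit of ribonucleotide reductase, the enzyme that makes deoxyribonucleotides for DNA synthesis. The genes were chosen by symbol and biotype: every protein-coding gene whose symbol is IL followed directly by a digit. This gave 85 of 58735 genes in the deposited table, of which 19951 are protein coding. The rise of *IL32* was a measured value that entered the choice, so *IL32* is described without a test and left out of every count of called members. Earlier results of these data were also known when the genes and tests were chosen.

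Gene expression was measured by RNA sequencing in 3 libraries of TPC-1, labelled as wild strain, and 3 libraries of *RRM2*-OE-TPC-1. The latter were infected with the lentivirus LV18, in which a CMV promoter drives *RRM2*, and were selected with puromycin. Whether they are a pool or a clone is not stated in the sources used here. All cells were grown in RPMI with 10% FBS. No library with an empty vector was analysed here, so infection and selection cannot be told apart from *RRM2* itself. By title all 3 infected libraries carry *RRM2*, but the genotype labels of replicates 2 and 3 name RRM3 and RRM4. The methods call the 3 libraries of a group biological replicates, without saying whether they came from separate infections or cultures.

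The level of *RRM2* was 8.92 ± 0.346 FPKM in TPC-1, against 48.4 ± 1.78 FPKM in *RRM2*-OE-TPC-1 (SD, n = 3). FPKM is the number of fragments per kilobase of gene length, scaled to sequencing depth. The libraries held 14317091 to 17084067 reads on genes. Of 18 leukocyte markers, 8 had 0 reads in every library and 16 had fewer than 10, and *PTPRC*, the leukocyte common antigen, never exceeded 1 read. Their summed reads were 41 to 50 per library in TPC-1 against 23 to 28 in *RRM2*-OE-TPC-1. The thyroid factor *PAX8* was high, at a mean of 69.3 and 58.5 FPKM in the respective groups, whereas *NKX2-1*, another factor of differentiated thyroid cells, had 0 reads in every library. The bulk values do not tell fewer cells of a kind from less RNA per cell.

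Interleukins are secreted or released signaling proteins, first described in leukocytes, that act through paired receptor chains. The IL-1 and IL-17 families pass their signal through adaptor proteins to NF-kB and MAP kinases. The IL-6 family shares the receptor chain gp130, and most remaining families use chains that recruit JAK kinases and STAT factors. Epithelial and carcinoma cells usually carry many of the receptors and make a few of the ligands, among them IL-6, IL-11 and the IL-1 cytokines.

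The promoters of *IL32* and of the members past the filter that are called below are shown first, because NF-kB, AP-1 and STAT factors are the usual ends of these pathways. Members under the filter, such as *IL1A*, differed by larger ratios than some of these genes and are not shown. RefSeq (GRCh38.p14) gave promoters for 69 of the 85 members, and the 250 bases before each transcription start were searched on both strands. The 5 stretches of 30 bases below hold each match found before the starts of *IL32* and of the called members past the filter. Capitals mark the NF-kB motif, or, for *IL1R1*, the STAT motif TTCNNNGAA.
IL32, chr16:3065295-3065324, + strand: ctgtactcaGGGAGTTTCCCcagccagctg
IL6, chr7:22727117-22727146, + strand: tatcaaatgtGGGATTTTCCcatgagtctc
IL1R2, chr2:101991825-101991854, + strand: ctgcagcctgGGGGTGCTCCccgtgaggag
IL18R1, chr2:102356033-102356062, + strand: cgccagGGAGCGCCCCagactgagagcgcc
IL1R1, chr2:102142249-102142278, + strand: tgatccctttTTCACAGAAgaggaaacgga

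The first base of the match lay 99 bases before the start in *IL32*, 73 in *IL6*, 125 in *IL1R2*, 244 in *IL18R1* and 47 in *IL1R1*. In *IL32* the capitals cover 2 overlapping matches, of which GGGAGTTTCC is the first and GGAGTTTCCC the second. The stretches of *IL32*, *IL1R2* and *IL18R1* overlap exons of other GENCODE transcripts that begin upstream. *IL32*, *IL1R2* and *IL18R1* have 2 windows each and *IL1R1* has 4, and the remaining windows, like the single window of *IL21R*, held none of the 3 motifs. Among all 34943 windows of 27167 genes, 9.95% held the NF-kB motif, 6.59% the AP-1 motif TGANTCA and 6.56% the STAT motif. The corresponding shares of the 110 windows of members were 14.5%, 16.4% and 7.27%. Windows of a gene can overlap, as for the AP-1 motif in *IL15RA* and *IL1A*, so the same site can be counted in several windows. The differences between these shares were not tested. These matches describe the letters of the windows and say nothing of binding in TPC-1.

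Of the 85 genes, 24 passed the filter of at least 0.5 FPKM and 10 reads in at least 3 libraries, and 20 had 0 reads in all 6. Another 15 stayed under the filter with 10 or more reads in some library, and 26 never reached 10 reads. The genes past the filter were 18 receptor chains, 4 ligands and 2 inhibitors. By contrast, 14 ligands had 0 reads and 15 ligands stayed under 10 reads. Receptor chains thus made up most of the members that could be tested. The plot of FPKM by library shows the levels of these 24 genes.

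**Figure D1:**
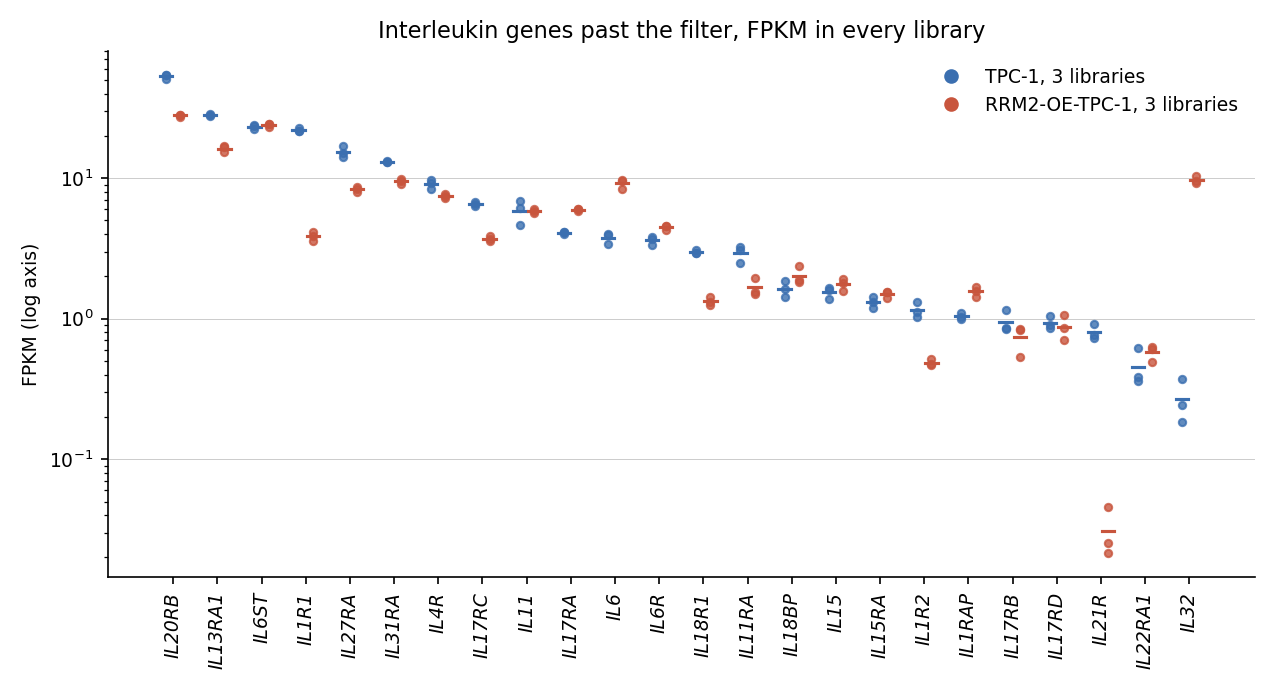
FPKM on a log axis of the 24 interleukin genes that passed the filter, ordered by their mean in TPC-1. Points are single libraries, 3 of TPC-1 in blue and 3 of *RRM2*-OE-TPC-1 in red, and bars are group means. *IL20RB* stood highest in both groups, and *IL32* moved from below 0.4 to above 9 FPKM.

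In TPC-1 the highest level per length belonged to *IL20RB*, a receptor chain for IL-19, IL-20 and IL-24, at 53.1 ± 2.25 FPKM (SD, n = 3). It was followed by *IL13RA1* at 28.2 ± 0.357, *IL6ST* (gp130) at 23.3 ± 0.803 and *IL1R1*, the signaling receptor for IL-1, at 22.2 ± 0.678 FPKM. The ranges of *IL6ST* and *IL1R1* overlapped, so the order of that pair is not settled. Below them came *IL27RA* at 15.4 ± 1.36 and *IL31RA* at 13.0 ± 0.129 FPKM. In *RRM2*-OE-TPC-1 the first places went to *IL20RB* at 28.0 ± 0.461 and *IL6ST* at 24.0 ± 0.757 FPKM, followed by *IL13RA1* at 16.3 ± 0.853 FPKM. *IL32* was the most abundant ligand there, at 9.70 ± 0.634 FPKM, in a range that overlapped that of *IL6* at 9.21 ± 0.736 FPKM. In TPC-1 the leading ligands were *IL11* at 5.87 ± 1.10 and *IL6* at 3.78 ± 0.335 FPKM.

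The comparison of the cells with and without added *RRM2* was made on log2(FPKM + 0.1) with limma across 13621 genes. A gene was called when its Benjamini-Hochberg adjusted p was 0.05 or less and its log2 fold change at least 1 in size. Among all genes, 4.48% were called higher in *RRM2*-OE-TPC-1 and 6.97% were called lower. Of the 23 members tested, 1 rose, *IL6*, and 4 fell: *IL1R1*, *IL18R1*, *IL1R2* and *IL21R*. The last 2 passed the filter through their TPC-1 libraries, where they are high, so the counts over the tested members are a description. By adjusted p alone, 4 were higher and 11 lower, where 34.9% of all genes were higher and 32.7% lower. The groups did not overlap in 16 members, 4 higher and 12 lower, against 72.2% of all genes. The median log2 fold change of the 23 was -0.29, beside 0.01 over all genes tested. Nothing particular to the interleukins as a group is read from these counts.

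**Figure D2:**
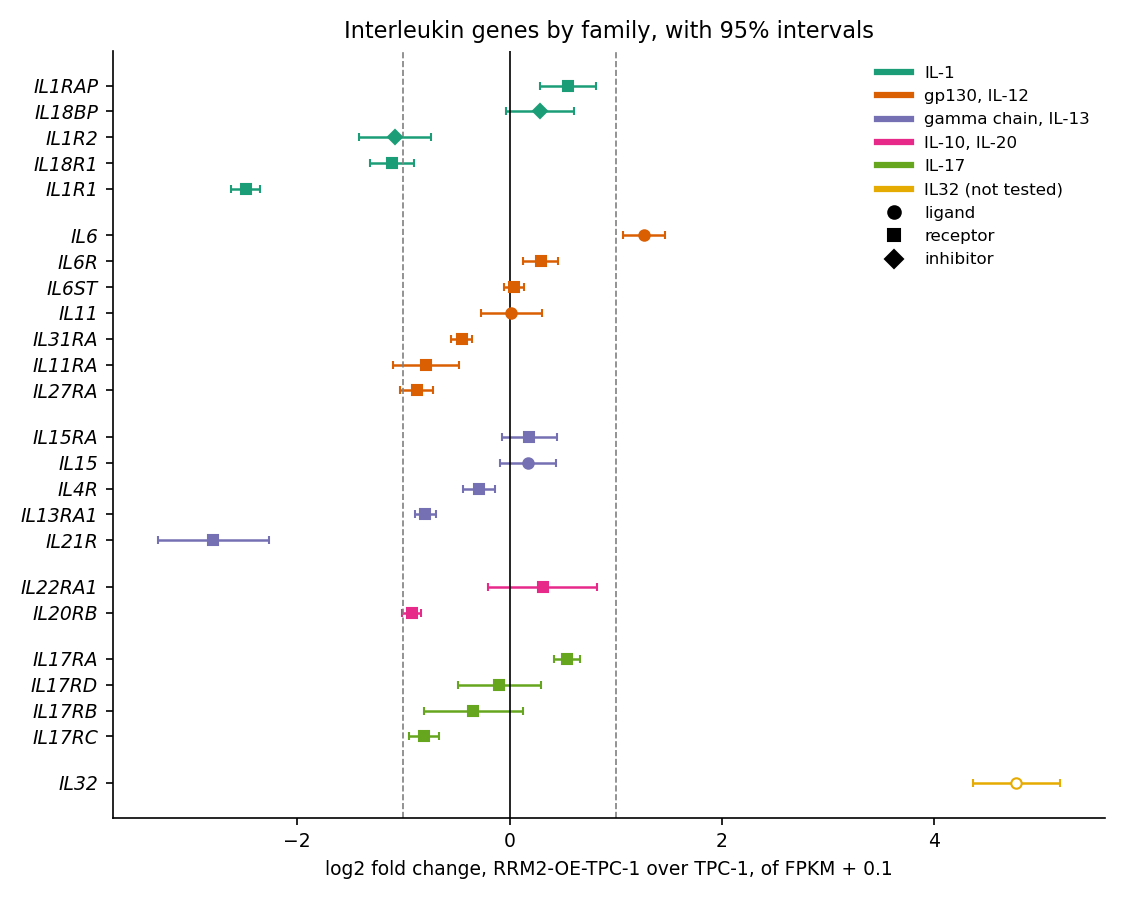
Log2 fold change of FPKM + 0.1, *RRM2*-OE-TPC-1 over TPC-1 (3 libraries each), for the 24 genes past the filter, grouped by family. Bars are 95% intervals from limma, dashed lines mark a log2 fold change of 1 in either direction, and *IL32* (open point) is shown without a test. The bar of *IL32* is no support for its rise. *IL1R1* and *IL21R* lie farthest to the left and *IL6* is the only tested gene beyond the right line.

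*IL32* (ENSG00000008517, chromosome 16 from 3065297 to 3082192 of GRCh38) encodes a cytokine that is unlike the other interleukin families in sequence and has no agreed receptor. TPC-1 replicates 1 to 3 had 13, 10 and 19 reads, or 0.243, 0.185 and 0.372 FPKM. *RRM2*-OE-TPC-1 replicates 1 to 3 had 442, 572 and 469 reads, or 9.53, 10.4 and 9.17 FPKM. All 3 *RRM2*-OE-TPC-1 libraries thus stood far above the TPC-1 libraries, with no overlap. The log2 fold change was 4.77, and the ratio of the reads, scaled for depth, was 36.7. The exact 95% interval of that ratio, 27.0 to 51.2, covers counting error only. The rise of *IL32* entered the choice of the genes, so the interval is no support for it. The size of the log2 value rests on the small count in TPC-1 and ran from 3.08 with a pseudocount of 1 to 5.19 with a pseudocount of 0.01. *IL32* entered the table of tested genes only through the *RRM2*-OE-TPC-1 libraries. T and NK cells are a known source of *IL32*. Of the leukocyte markers, *CD2*, *CD3E* and *CD8A* had 0 reads in all libraries. *CD3D* had 4 reads over TPC-1 against 0 over *RRM2*-OE-TPC-1, *CD3G* 0 against 1, and *PTPRC* 0 against 2. The NK markers *KLRD1* and *NKG7* had 8 and 5 reads over the TPC-1 libraries and 0 over the *RRM2*-OE-TPC-1 libraries. *CD4* had 58 reads over TPC-1 against 18 over *RRM2*-OE-TPC-1, and *CD14* 36 against 13, whereas *ITGAM* had 3 against 19 and *CSF1R* 15 against 19. The part of such cells in the level of *IL32* was not tested.

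*IL6* (ENSG00000136244, chromosome 7 from 22725884 to 22732002) encodes the inflammatory cytokine that signals through gp130 to STAT3. Its reads were 138, 118 and 130 in TPC-1 replicates 1 to 3 against 250, 343 and 316 in *RRM2*-OE-TPC-1 replicates 1 to 3. In FPKM these were 4.00, 3.39 and 3.94 against 8.36, 9.68 and 9.59. Each *RRM2*-OE-TPC-1 library exceeded each TPC-1 library. *IL6* rose by a log2 fold change of 1.26 (standard error 0.0853, limma adjusted p = 5.3e-06). It kept this side of the threshold in all alternatives run, from 1.10 to 1.33. Exons of the antisense gene *AC073072.1* overlap 20.7% of its exon bases, but that gene averaged only 0.188 FPKM.

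The receptor for IL-6 consists of *IL6R*, which binds the cytokine, and *IL6ST*. *IL6R* had 3.63 ± 0.240 FPKM in TPC-1 and 4.46 ± 0.137 FPKM in *RRM2*-OE-TPC-1 (SD, n = 3), a log2 difference of 0.29 that passed by adjusted p alone (limma, 0.0064). The level of *IL6ST* was nearly the same in both groups: the reads were 3484, 3761 and 3462 in TPC-1 against 3105, 3887 and 3618 in *RRM2*-OE-TPC-1. Its log2 fold change was 0.04 with a 95% interval of -0.05 to 0.14, so a change as large as that of *IL6* lies outside the interval. The ligand *IL11* also differed little, at 0.01 with an interval of -0.27 to 0.30, and its own receptor *IL11RA* was lower at -0.79 (adjusted p = 0.0011 by limma), short of the fold threshold. The value of *IL11RA* is uncertain because 7.82% of its exon bases are shared with *GALT* on the same strand.

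Other chains that pair with gp130 or its relative *OSMR* were lower by less than the fold threshold. *IL27RA*, which joins gp130 in the IL-27 receptor, went from 15.4 ± 1.36 to 8.35 ± 0.325 FPKM (SD, n = 3), a log2 fold change of -0.88 (limma adjusted p = 1.1e-05). *IL31RA*, which joins *OSMR* in the IL-31 receptor, went from 13.0 ± 0.129 to 9.50 ± 0.374 FPKM, a log2 fold change of -0.45 (limma adjusted p = 4.0e-05). The matching ligands were scarcely present, with 0 reads of *IL31* in all libraries and 1 read of *IL27* in all.

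Of the 5 tested members of the IL-1 family, 3 were called lower and none higher, beside 6.97% and 4.48% of all genes. Their median log2 fold change was -1.08, the value of *IL1R2*, which met the filter through TPC-1, where it is high. Nothing particular to the family is read from this count. *IL1R1* (ENSG00000115594, chromosome 2 from 102064544 to 102179874) had 2567, 2732 and 2462 reads in TPC-1 against 368, 469 and 470 in *RRM2*-OE-TPC-1. This corresponds to 21.7, 22.9 and 21.8 FPKM against 3.59, 3.87 and 4.16 FPKM. The lowest TPC-1 library was thus several times above the highest *RRM2*-OE-TPC-1 library. The log2 fold change was -2.49 (standard error 0.0605, limma adjusted p = 4.3e-08), and it ran from -2.57 to -2.25 over the alternatives.

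*IL18R1* (ENSG00000115604, chromosome 2 from 102311529 to 102398775), the ligand-binding chain of the IL-18 receptor, had 213, 214 and 214 reads in TPC-1 against 90, 98 and 87 in *RRM2*-OE-TPC-1. The FPKM values were 2.93, 2.92 and 3.08 against 1.43, 1.31 and 1.25, and the groups did not overlap. It fell by 1.11 on the log2 scale (standard error 0.0888, limma adjusted p = 1.4e-05). Its exons share 95 bases with those of *IL1RL1* on the same strand, which had at most 10 reads.

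*IL1R2* (ENSG00000115590, chromosome 2 from 101991844 to 102028544) encodes a decoy receptor that binds IL-1 without signaling. The reads were 67, 58 and 50 in TPC-1 against 23, 25 and 23 in *RRM2*-OE-TPC-1, or 1.31, 1.12 and 1.02 against 0.518, 0.475 and 0.470 FPKM. Both the signaling receptor and the decoy were therefore lower in every *RRM2*-OE-TPC-1 library. The log2 fold change of *IL1R2* was -1.08. All 3 TPC-1 libraries but only 1 of the *RRM2*-OE-TPC-1 libraries reached the filter, which favours a gene that is lower there. In the fit without the filter *IL1R2* was also called (limma adjusted p = 0.0041). This call is close to the fold threshold: without TPC-1 replicate 1 the value was -0.995, just short of it, which left 3 members lower instead of 4. With a pseudocount of 1, *IL1R2*, *IL18R1* and *IL21R* dropped below the fold threshold, at -0.53, -0.77 and -0.81.

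*IL1RAP*, the coreceptor that *IL1R1* needs for signaling, was higher in *RRM2*-OE-TPC-1, at 1.57 ± 0.129 against 1.04 ± 0.0574 FPKM (SD, n = 3), with a log2 fold change of 0.55 (limma adjusted p = 0.0028). *IL18BP*, a secreted inhibitor of IL-18, had a log2 fold change of 0.29 with a 95% interval of -0.03 to 0.61 and did not pass. Its exons overlap those of *NUMA1*, a gene of 10.5 FPKM on the opposite strand, over 15.6% of its bases, and whether counting used strand is not stated. Of the agonist ligands of these receptors, *IL1A* had 0 to 1 reads in the TPC-1 libraries and 10 to 12 in the others and is described with the low members below. *IL1B* had 0 to 2 reads per library, *IL18* at most 1, and *IL33* at most 3.

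*IL1R2*, *IL1R1*, *IL1RL2*, *IL1RL1*, *IL18R1* and *IL18RAP* lie side by side on chromosome 2, from 101991844 to 102452565. The 3 that passed the filter were the 3 that fell, and *IL1R2* passed it through TPC-1, where it is high. *IL18RAP*, the second chain of the IL-18 receptor, had at most 3 reads in a library, and *IL1RL2*, the IL-36 receptor, had 1 read in all. Within 500 kb on either side, 4 further genes were tested and none was called. Over all genes tested, 4.48% were called higher and 6.97% lower, so nothing particular to the cluster is read from these counts. The kinase gene *MAP4K4* and *MFSD9* were higher by adjusted p alone, with log2 fold changes of 0.48 each, *LINC01127* was lower at -0.81 (limma adjusted p = 7.8e-05), and *TMEM182* did not pass at -0.07.

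**Figure D3:**
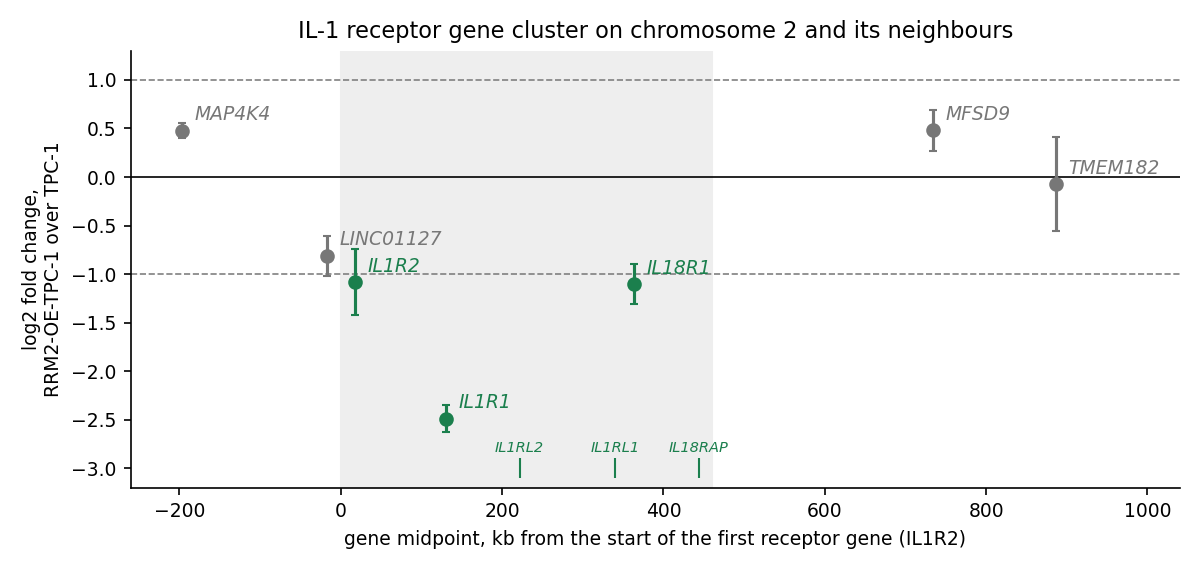
Log2 fold change (*RRM2*-OE-TPC-1 over TPC-1, 3 libraries each) of tested genes within 500 kb of the IL-1 receptor cluster, against the distance of the gene's midpoint from the start of *IL1R2* in kb. Green points are cluster members, grey points are neighbours, bars are 95% intervals from limma, the shaded band is the cluster and ticks mark members under the filter. The 3 tested receptors are at -1.08 or below, and the genes outside the band are between -0.81 and 0.48.

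*IL21R* (ENSG00000103522, chromosome 16 from 27402162 to 27452042), the receptor for IL-21, had 84, 67 and 67 reads in TPC-1 against 2, 2 and 4 in *RRM2*-OE-TPC-1. This is 0.921, 0.729 and 0.769 FPKM against 0.0253, 0.0214 and 0.0459 FPKM, so the gene was almost absent from the *RRM2*-OE-TPC-1 libraries. The log2 fold change was -2.79, and it ran from -0.81 to -4.58 with the pseudocount and the method. *IL21R* passed the filter only through TPC-1, where it is high, so its test after the filter is no support. In the fit without the filter it was also called (limma adjusted p = 4.2e-04). Scaled for depth, TPC-1 had 26.2 times the reads of *RRM2*-OE-TPC-1, with an exact 95% interval of 13.1 to 61.4 for counting error. *IL2RG*, the common gamma chain with which *IL21R* pairs, and the ligand *IL21* had 0 reads in all 6 libraries. For *IL2RG*, 3 reads in a library would have been 0.0635 to 0.0752 FPKM.

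The chains of the type II receptor for IL-4 and IL-13 do not need the common gamma chain. *IL13RA1* was at 28.2 ± 0.357 FPKM in TPC-1 and 16.3 ± 0.853 FPKM in *RRM2*-OE-TPC-1 (SD, n = 3), a log2 fold change of -0.79 (limma adjusted p = 2.1e-06). Its partner *IL4R* was at 9.14 ± 0.696 and 7.47 ± 0.289 FPKM, a log2 fold change of -0.29 (limma adjusted p = 0.0048). Both were lower in all *RRM2*-OE-TPC-1 libraries and neither reached the fold threshold. *IL15* and its presenting receptor *IL15RA* did not pass, with log2 fold changes of 0.17 (95% interval -0.09 to 0.44) and 0.19 (-0.07 to 0.44). *IL2RB*, the chain with which IL-15 signals, had at most 2 reads in a library.

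*IL20RB* is described with its partners because it was the most abundant member. Its reads were 2250, 2102 and 2142 in TPC-1 against 1012, 1163 and 1110 in *RRM2*-OE-TPC-1. In FPKM these were 54.5, 50.5 and 54.3 against 28.3, 27.5 and 28.2. The level in *RRM2*-OE-TPC-1 was thus close to 1 log2 unit lower, at -0.92 (standard error 0.0392, limma adjusted p = 5.4e-07). Its partner *IL20RA* had 0 reads in all libraries. The alternative partner *IL22RA1* had 16 to 29 reads and a log2 fold change of 0.31 (95% interval -0.20 to 0.82), which did not pass.

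In the IL-17 receptor family, the shared chain *IL17RA* and its partner *IL17RC* lay on opposite sides of 0. *IL17RA* was at 4.08 ± 0.0696 FPKM in TPC-1 and 5.97 ± 0.126 FPKM in *RRM2*-OE-TPC-1 (SD, n = 3), a log2 fold change of 0.54 (limma adjusted p = 4.5e-05). *IL17RC* was at 6.54 ± 0.243 and 3.70 ± 0.169 FPKM, a log2 fold change of -0.81 (limma adjusted p = 1.0e-05). *IL17RD* and *IL17RB* did not pass, at -0.10 (95% interval -0.49 to 0.30) and -0.34 (-0.80 to 0.12). The value of *IL17RB* is uncertain because 99 of its exon bases overlap *AC012467.2* on the opposite strand, which was the more abundant at 1.74 FPKM. *IL17A* had 0 reads throughout, and *IL17F*, the other main ligand of this receptor, had at most 2.

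Among the 15 members under the filter, 4 had higher reads in each *RRM2*-OE-TPC-1 library than in any TPC-1 library by a wide margin. *IL12RB2* was also higher without overlap, and *IL10RB*, *IL17D* and *IL4I1* were lower without overlap. Of all genes tested, 72.2% did not overlap, so nothing particular to these members is read from the separation. *IL7R*, the receptor for IL-7, had 0, 2 and 0 reads in TPC-1 against 16, 16 and 24 in *RRM2*-OE-TPC-1, a ratio of 29.1 (exact 95% interval 7.70 to 246). *IL1A*, which encodes IL-1 alpha, an agonist of the IL-1 receptor, had 0, 0 and 1 reads against 11, 12 and 10, a ratio of 34.3 (5.75 to 1397). *IL24*, a ligand of receptors that contain *IL20RB*, had 2, 1 and 0 reads against 15, 22 and 12, a ratio of 17.0 (5.48 to 85.2). The intervals are scaled for depth and cover counting error only. *IL7R*, *IL1A*, *IL24* and *IL16* reached 10 reads only in *RRM2*-OE-TPC-1 libraries, where they are high. The ratios are therefore a description, and the intervals are no support for a rise. *IL16*, a chemoattractant for CD4+ cells, had 1, 1 and 3 reads against 8, 10 and 12, and its reads are uncertain because 36.0% of its exon bases overlap *STARD5* on the opposite strand, which was the more abundant. When all 30958 genes with a read were tested without the filter, 2.97% were called higher and 4.4% lower. In that fit *IL1A*, *IL24* and *IL7R* were called higher (limma adjusted p = 0.0017, 0.0028 and 0.0046), *IL16* was not (0.065), and no further member was called lower.

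**Figure D4:**
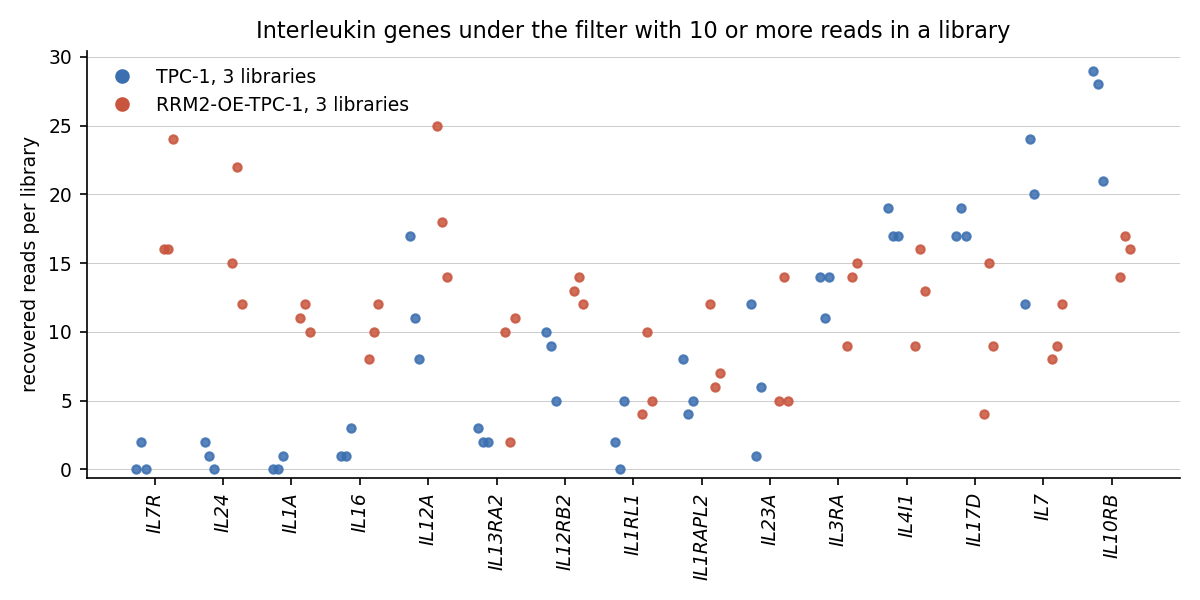
Reads recovered per library for the 15 interleukin genes under the filter with 10 or more reads in a library, ordered from the largest gain to the largest loss of reads in *RRM2*-OE-TPC-1. Points are single libraries, 3 of TPC-1 in blue and 3 of *RRM2*-OE-TPC-1 in red, on a linear axis. *IL7R*, *IL24*, *IL1A* and *IL16* had 0 to 3 reads in TPC-1 against 8 to 24 in *RRM2*-OE-TPC-1.

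The other 11 low members had mixed values. *IL10RB*, the shared second chain of the IL-10 and IL-22 receptors, had 29, 28 and 21 reads in TPC-1 against 14, 17 and 16 in *RRM2*-OE-TPC-1. *IL7* had 12, 24 and 20 against 8, 9 and 12 reads, and *IL17D* 17, 19 and 17 against 4, 15 and 9. *IL4I1*, an amino acid oxidase rather than a cytokine, had 19, 17 and 17 against 9, 16 and 13. These 4 leaned toward TPC-1, without overlap in *IL10RB*, *IL17D* and *IL4I1*, and none of the 4 was called without the filter. On the same strand, *IL10RB* shares 38.1% of its exon bases with *AP000295.1*, and *IL4I1* 13.1% with *NUP62*. On the opposite strand, *IL17D* shares 39.0% with *AL161772.1*, and *IL7* 9.49% with *ZC2HC1A*. The counts of these 4 genes are therefore uncertain.

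*IL12A*, a subunit of IL-12 and IL-35, had 17, 11 and 8 reads in TPC-1 against 25, 18 and 14 in *RRM2*-OE-TPC-1, in overlapping ranges. *IL12RB2* had 10, 9 and 5 against 13, 14 and 12 reads, *IL13RA2* 3, 2 and 2 against 10, 2 and 11, and *IL1RL1* 2, 0 and 5 against 4, 10 and 5. *IL23A* had 12, 1 and 6 against 5, 14 and 5 reads. Its values varied as much within a group as between the groups. *IL1RAPL2* had 8, 4 and 5 against 12, 6 and 7 reads, and *IL3RA* 14, 11 and 14 against 9, 14 and 15. *IL3RA* lies in the pseudoautosomal region, where reads of the X and Y copies cannot be separated, so its count is uncertain.

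The 20 members with 0 reads were *IL2*, *IL3*, *IL9*, *IL10*, *IL17A*, *IL19*, *IL20*, *IL21*, *IL22*, *IL25*, *IL26*, *IL31*, *IL36A*, *IL1F10*, *IL36RN*, *IL2RA*, *IL2RG*, *IL9R*, *IL20RA* and *IL23R*. Most of them are T cell cytokines or chains known from lymphocytes. A floor of 3 reads, chosen here, corresponded to 0.0370 to 0.351 FPKM, depending on gene length and library, so lower levels could have been missed at this depth. The 26 members between 1 read in all and 9 reads in a library included *IL1RN*, the IL-1 receptor antagonist, with 1 read in each group, and *IL13* with 9 reads in TPC-1 against 1 in *RRM2*-OE-TPC-1.

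Genes that carry or answer interleukin signals were read from 8 lists, which hold 106 genes. Of these, 65 were tested, 7 rose and 4 fell, with a median log2 fold change of -0.14, and by adjusted p alone 18 were higher and 28 lower. *CCL26*, *MMP1* and *SAA2* passed the filter through the *RRM2*-OE-TPC-1 libraries, where they are high, so the count of rises is a description. Over all genes tested, 4.48% were called higher and 6.97% lower, and 34.9% and 32.7% by adjusted p alone. No gene was called among 9 tested JAK and STAT genes, 11 SOCS and PIAS inhibitors and 11 receptor adaptors, and beside such shares 0 calls in so few genes say nothing particular to them. By adjusted p alone, 4 JAK and STAT genes were higher and 4 lower, 5 inhibitors were lower and none higher, and 3 adaptors were higher and 4 lower.

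Values of a few of these genes were picked after they had been seen. *JAK1*, a kinase that binds gp130, had a log2 fold change of 0.63 and *STAT3* one of 0.14, both past the adjusted p. The other tested JAK kinases, *TYK2* and *JAK2*, were at 0.17 and -0.36, also past the adjusted p. *STAT2* was at -0.92, and *SOCS3*, the feedback inhibitor of gp130 signaling, was at -0.65, from 23.8 ± 1.17 to 15.1 ± 0.898 FPKM (SD, n = 3). *SIGIRR*, an inhibitory receptor of the IL-1 family, stayed under the filter with 4, 5 and 1 reads in TPC-1 against 21, 30 and 26 in *RRM2*-OE-TPC-1.

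**Figure D5:**
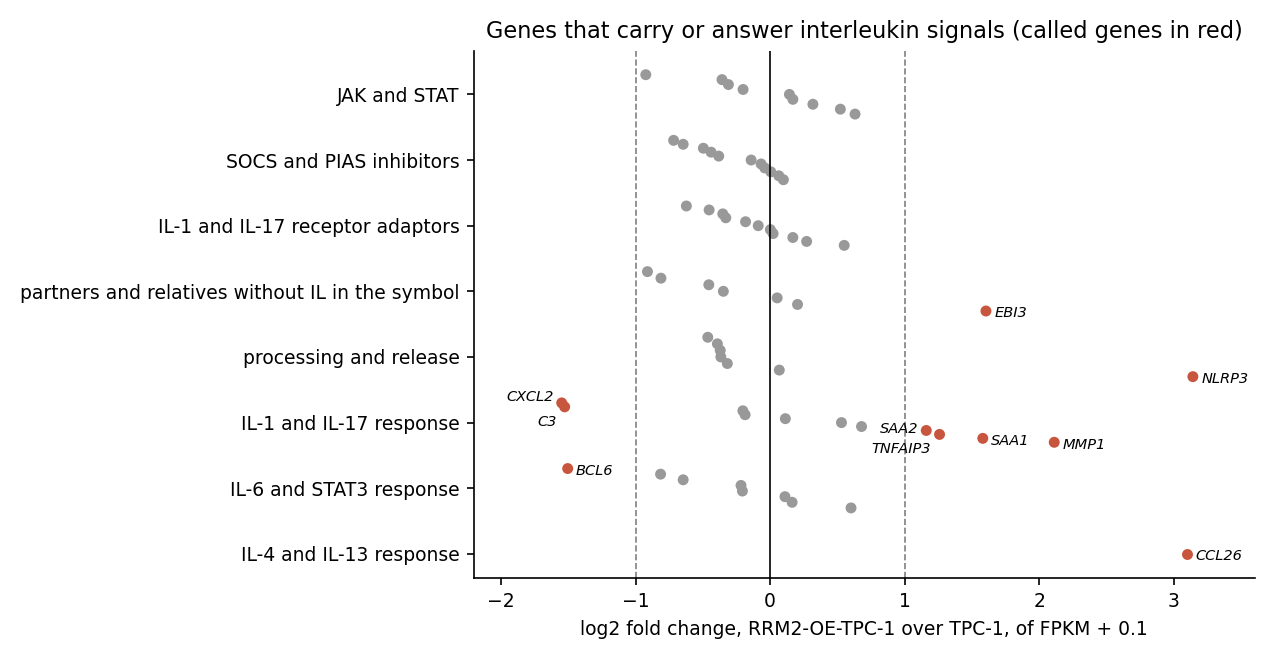
Log2 fold change of FPKM + 0.1, *RRM2*-OE-TPC-1 over TPC-1 (3 libraries each), of tested genes that are reported here, from 8 lists of interleukin signaling. Each point is a gene, called genes are red and named, dashed lines mark a log2 fold change of 1 in either direction, and the vertical offset has no meaning. The named genes are at 1.16 to 3.14 or at -1.50 to -1.55, and the first 3 lists hold none.

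Among 19 partners and relatives of the interleukins whose symbols do not begin with IL, 8 were tested and 1 rose. Over all genes tested, 4.48% were called higher. *EBI3*, the subunit that IL-27 and IL-35 have in common, rose from 19, 11 and 16 reads in TPC-1 to 35, 53 and 59 in *RRM2*-OE-TPC-1, a log2 fold change of 1.60 (standard error 0.216, limma adjusted p = 2.6e-04). The partner of *EBI3* in IL-27, *IL27*, had 1 read in all, whereas *IL12A*, its partner in IL-35, had 8 to 25 reads per library. *OSMR* and *LIFR*, which pair with gp130 for oncostatin M and LIF, were at -0.91 and -0.81, short of the fold threshold.

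Of 13 genes for the processing and release of interleukins, 7 were tested and *NLRP3* alone was called. Over all genes tested, 4.48% were called higher and 6.97% lower. *NLRP3*, the sensor of an inflammasome that activates caspase-1, had 56, 41 and 47 reads in TPC-1 against 440, 491 and 456 in *RRM2*-OE-TPC-1. Its level rose from 0.613 ± 0.0967 to 6.15 ± 0.218 FPKM (SD, n = 3), a log2 fold change of 3.14 (standard error 0.115, limma adjusted p = 2.7e-07). *PYCARD*, the adaptor between that sensor and the caspase, had at most 1 read in any library. *CASP1* itself stayed under the filter, with 29, 40 and 26 reads in TPC-1 against 10, 35 and 17 in *RRM2*-OE-TPC-1.

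The list of genes known to answer IL-1 and IL-17 held 17 genes, of which 11 were tested, 4 rose and 2 fell, beside 4.48% called higher and 6.97% lower over all genes. *MMP1* and *SAA2* passed the filter through the *RRM2*-OE-TPC-1 libraries, where they are high. The acute phase gene *SAA1* rose from 15.5 ± 2.79 to 46.0 ± 1.95 FPKM (SD, n = 3), a log2 fold change of 1.58. Its near-identical neighbour *SAA2* was higher by 1.16, and reads of the pair may have been split between them. *TNFAIP3*, a feedback inhibitor of NF-kB, rose by 1.26, and the collagenase gene *MMP1* was higher by 2.11, from 5, 4 and 13 reads to 37, 38 and 39. In the opposite direction, the complement gene *C3* fell from 119 ± 3.06 to 41.4 ± 0.328 FPKM, a log2 fold change of -1.53, and the chemokine gene *CXCL2* fell from 10.5 ± 1.44 to 3.51 ± 0.447 FPKM, a log2 fold change of -1.55. Genes on this list thus went both ways, with a median of 0.53. The limma adjusted p was 2.2e-08 for *C3*, 8.7e-06 for *SAA1*, 1.1e-05 for *CXCL2* and 7.8e-05 for *TNFAIP3*.

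The list for IL-6 and STAT3 held 15 genes, of which 8 were tested and *BCL6* alone was called. *BCL6*, a transcriptional repressor, fell from 10.6 ± 0.696 to 3.67 ± 0.211 FPKM (SD, n = 3), a log2 fold change of -1.50 (limma adjusted p = 7.4e-07). By adjusted p alone 2 of the 8 were higher and 4 lower. Over all genes tested, 4.48% were called higher and 6.97% lower, and 34.9% and 32.7% by adjusted p alone. Nothing particular to this list is read from these counts. Of the 8 genes known to answer IL-4 and IL-13, *CCL26* was the only one tested. This chemokine gene had 1, 6 and 1 reads in TPC-1 against 24, 26 and 26 in *RRM2*-OE-TPC-1, a log2 fold change of 3.10. It passed the filter only through the libraries where it is high, so its call is no support for a change of the list.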

How the data were processed

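Total RNA of 3 TPC-1 and 3 *RRM2*-OE-TPC-1 libraries was sequenced. The authors cleaned reads with fastp, aligned them with HISAT2 2.0.5, counted them per gene with featureCounts 1.5.0 on GRCh38.p14 (versions and build from the submitters' processing notes) and deposited FPKM values. The methods describe poly(A) selection, the labels removal of ribosomal RNA with RNase R digestion. Use of strand in counting is not given in the sources used here. GENCODE 29 holds all 58735 gene identifiers at the same positions.

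FPKM times gene length gave whole reads within 0.01 for every gene, which gave depths of 14317091 to 17084067 reads. The values were tested as log2(FPKM + 0.1) with limma 3.58.1 (lmFit, eBayes with trend) in R 4.3.3, unpaired, on 13621 genes with at least 0.5 FPKM and 10 reads in at least 3 libraries, and the procedure was tested on simulated data. Such fold changes understate the change of low genes. Ratios of reads have exact conditional 95% intervals, with depth taken from the deposited scaling. Tables were handled in Python 3.11.15 with numpy 2.4.6, pandas 2.3.3 and matplotlib 3.10.9.

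The members, the 8 signaling lists, written by hand, and the tests were chosen with earlier results of these data known. Every member is accounted for: per-library values for called members and *IL32*, FPKM or reads for the other tested members, reads for members under the filter with 10 or more reads, and counts for the rest. Of the lists, called genes are named, except that some genes are not reported here, and other named genes were picked after their values were seen, except neighbours of the IL-1 receptor cluster, taken by position, and partners of members. The alternatives were pseudocounts of 1 and 0.01, no filter, other scalings, voom on recovered reads, a replicate block, adjusted p alone and each library left out.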

Additional observations from a re-analysis of the deposited data

How the results depend on the processing

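The threshold on the fold change, the filter and the pseudocount moved the counts. By adjusted p alone, 4 members were higher and 11 lower, 18 and 28 genes of the signaling lists, and 4758 and 4449 of all genes. With a pseudocount of 1, 1 member was lower, 3 list genes were higher, and 303 of all genes were higher and 413 lower. With no filter, 4 members and 920 of all genes were higher, and 7 list genes were lower. With each library left out in turn, 1 member stayed higher and 3 to 4 lower, list genes were 6 to 7 higher and 3 to 4 lower, and all genes 600 to 632 higher and 966 to 1003 lower. Log2 fold changes near 0 changed sign: *IL6ST* was -0.016 with library totals and -0.015 with voom on recovered reads, *IL11* -0.044 and -0.042 there and -0.14 to 0.13 with libraries left out (below 0 without replicate 2 of either group), and *IL17RD* -0.23 to 0.037 with libraries left out (above 0 without *RRM2*-OE-TPC-1 replicate 1). The cause was not tested. Library totals moved the median of all genes from 0.01 to -0.05. Deviations of libraries with the same replicate number had correlations of -0.055 to -0.006, so the numbers did not pair the libraries. With the replicate number as a block, 1 member was called higher and 4 lower, and 610 and 956 of all genes. Depth limits the members under the filter, for which single reads decide a ratio.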

Other observations

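Besides the protein-coding members, 12 genes with symbols of the same form are not protein coding: 7 antisense genes and 5 pseudogenes. Reads were found for 8 of them, and *IL20RB-AS1*, which lies on the strand opposite *IL20RB* on chromosome 3 from 136959125 to 136982196, was the only one past the filter. It had 17, 10 and 11 reads in TPC-1 and 5, 6 and 4 in *RRM2*-OE-TPC-1. It passed the filter only through TPC-1, where it is high, so its log2 fold change of -1.13 is given without a test. The exons of the pair share 37 bases, and because strand use in counting is not known, reads in those bases cannot be told apart.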
